A study of Mus musculus with 16 samples.

Results

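Heart slices of Swhtr null mice that had passed through a week at low oxygen and then recovered were compared with slices of the same genotype kept at normal oxygen throughout. Swhtr is a long non-coding RNA transcribed divergently from the cardiac transcription factor gene Nkx2-5. Swhtr null mice are homozygous for a transcriptional stop signal (Swhtr 3xpA/3xpA) that ends the transcript early on a C57Bl6/J background, and carry it in every cell. The mice were 8 weeks old and male, 4 per genotype. Untreated slices (4 libraries) were cultured for 14 days at 21% oxygen. Treated slices (4 libraries) spent the first 7 days at 3% oxygen and the last 7 days at 21%, in serum-containing medium. The series also holds 4 untreated and 4 treated libraries of wild type (WT) slices, which entered the fit and serve here for the difference between genotypes. With 8 libraries from 4 mice per genotype, some libraries share a mouse, and the labels do not say which. Members were all genes whose counts summed to 10 or more across the 8 Swhtr null libraries, which gave 22330 of the 55487 genes in the count table. The counts summed to 17830351 to 21436742 in the untreated and to 21453891 to 29941903 in the treated Swhtr null libraries. Swhtr itself is not among the gene identifiers used here, so its level could not serve as a check of the genotype labels.

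Cells sense a lack of oxygen through the hypoxia-inducible factors (HIFs). In normal oxygen, prolyl hydroxylases such as EGLN1 mark the HIF alpha subunits for destruction, and in low oxygen the subunits persist, bind short RCGTG elements and raise genes for glucose uptake, glycolysis, vessel growth and mitochondrial turnover. The treated slices were harvested after a week back at normal oxygen, so the comparison describes slices after reoxygenation and not slices in hypoxia. A heart slice kept in culture holds fibroblasts, macrophages, endothelial cells, mural cells and cardiomyocytes.

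The labelled tissue was checked against markers. Of the defining cardiomyocyte genes, 10 listed genes together gave 6.98 to 12.3 CPM (counts scaled to the TMM-adjusted library size) in untreated libraries, whereas 8 fibroblast markers together gave 22700 to 27400 CPM and 8 macrophage markers 7960 to 12900 CPM. Nkx2-5 itself was at 0.0942, 0.169, 0 and 0.308 CPM in untreated and at 0, 0.58, 0.135 and 0 CPM in treated libraries. Of the marker sets examined, those of fibroblasts and macrophages had the largest sums, and the defining cardiomyocyte markers were near 0. In treated libraries the cardiomyocyte markers summed to 14.4, 96.1, 71.7 and 10.9 CPM and the macrophage markers to 7560, 3990, 10100 and 8080 CPM, so treated libraries 2 and 3 stood apart in the first and treated library 2 in the second. The fibroblast markers summed to 24800 to 32800 CPM, overlapping the untreated range. In such bulk samples, fewer cells of a type and less RNA per cell cannot be told apart.

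Treated and untreated Swhtr null slices differed in HIF targets and genes of glucose handling, which were mostly lower after treatment. Ribosomal protein genes were lower too, most of them by less than the fold threshold. Genes of resting fibroblasts and extracellular matrix were mostly higher. With edgeR's quasi-likelihood test on the 4 group means, 171 of the 22330 genes tested (0.766%) passed a Benjamini-Hochberg adjusted p of 0.05 with a log2 fold change beyond 0.58 in either direction. Of these, 88 rose (0.394%) and 83 fell (0.372%). The counts of called members in each list below stand against these shares. A further 402 genes passed the adjusted p but not the fold threshold, and the median log2 fold change of all genes tested was 0.01. At an unadjusted p under 0.05 (edgeR), 2084 of the 22330 genes were higher and 1921 lower. With DESeq2 250 rose and 220 fell. Members counted by these 2 measures in the lists below stand against those numbers. The libraries of the 2 groups did not overlap in 146 of the 171 called genes, against 7.99% of all genes tested. Within same-numbered pairs of libraries, 170 of the 171 changed in the same direction in 4 of 4 pairs. The 171 genes were chosen with these same libraries, so both counts describe the calls and are no independent evidence for them.

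The size of this set depended on single libraries. Without untreated library 4 the test called 24 genes, without untreated library 3 it called 51, without treated library 1 it called 78 and without treated library 2 it called 82. Without treated library 3 it called 318 genes and without untreated library 2 it called 615. Blocking for the replicate number called 619 genes (320 rose, 299 fell), and 156 of the 171 were among them. That the numbers pair the Swhtr null libraries was taken from correlations in these same data, not from labels, and is not certain. The same fit blocked the WT libraries, whose numbers were not found to pair them. The 8 Swhtr null libraries fitted alone gave 6 genes. A group of 20 genes was called in each of the 8 fits without 1 library and with the block, among them Ddit4, Ankrd37, Mgarp, Adm2, Depp1, Ier3, Krt19 and Prelid2 (lower) and Cd34, Scara5, Carmn and Pcdhga2 (higher).

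**Figure D1:**
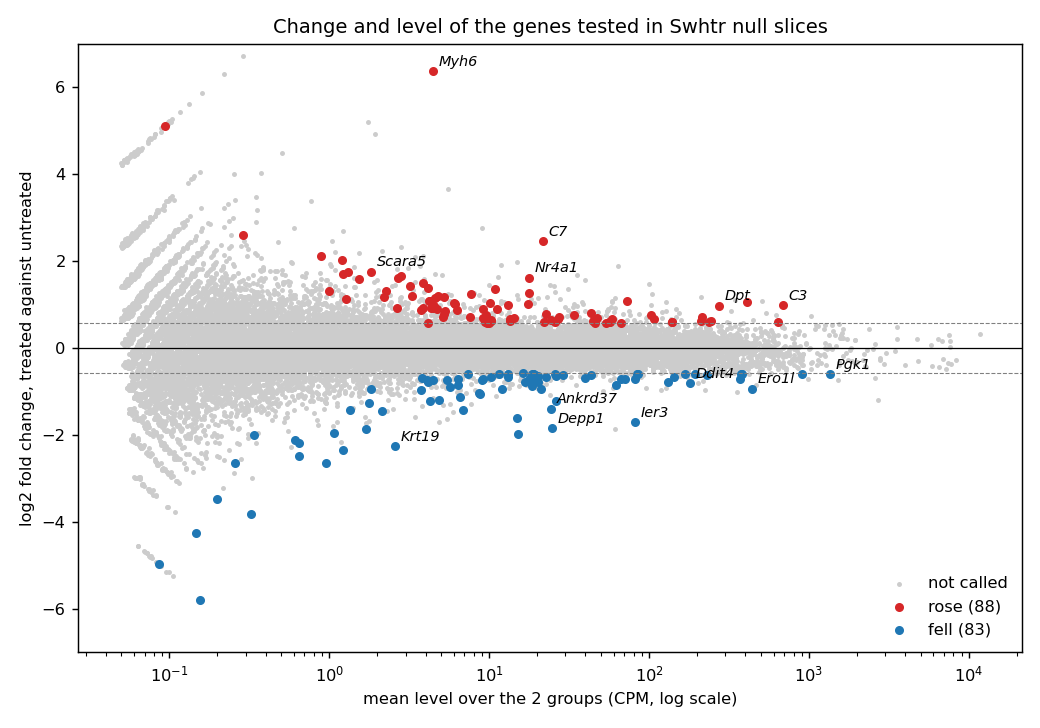
Log2 fold change (treated against untreated Swhtr null slices, vertical axis) against the mean level of the 2 groups (CPM, log scale) for genes with a mean above 0.05 CPM. Each point is a gene, red points are the 88 that rose, blue points the 83 that fell, and the dashed lines mark the fold threshold of 0.58. Ankrd37, Depp1 and Ier3 lie well below the bulk of genes at similar levels and C7 and Nr4a1 above it, whereas called genes at high levels such as Pgk1 lie close to the threshold.

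HIF targets outside glycolysis were the list with the most members past both thresholds among the genes that fell. Of 27 tested members of this list, 26 were lower in treated slices, 12 of them with an adjusted p under 0.05, and 6 passed both thresholds (0.372% of all genes tested fell). The members' median log2 fold change was -0.48, against 0.01 for all genes tested. The 2 groups of libraries did not overlap in 19 of the 27, against 7.99% of all genes tested. The list was chosen with earlier results of these data known, so its count describes the members and is no independent evidence of a direction. With the replicate block 11 members fell, and in the fits without 1 library the number that fell lay between 2 (without treated library 1 or untreated library 4) and 9 (without untreated library 2).

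The promoters of 4 genes that fell, 2 of this list (Ankrd37 and Bnip3) and 2 HIF targets of the glycolysis list (Pgk1 and Slc2a1), are printed to show where the letters of the HIF-binding core lie. They are the RefSeq windows on GRCm38 from 250 bases before to 50 bases after the start, read 5′ to 3′ on the gene's strand, with each ACGTG or GCGTG in capitals on either strand (on the other strand, CACGT or CACGC). Ankrd37 lies on chr8:45999801-46000100 (minus strand), Bnip3 on chr7:138909457-138909756 (minus strand), Pgk1 on chrX:106186850-106187149 (plus strand) and Slc2a1 on chr4:119108495-119108794 (plus strand).
Ankrd37: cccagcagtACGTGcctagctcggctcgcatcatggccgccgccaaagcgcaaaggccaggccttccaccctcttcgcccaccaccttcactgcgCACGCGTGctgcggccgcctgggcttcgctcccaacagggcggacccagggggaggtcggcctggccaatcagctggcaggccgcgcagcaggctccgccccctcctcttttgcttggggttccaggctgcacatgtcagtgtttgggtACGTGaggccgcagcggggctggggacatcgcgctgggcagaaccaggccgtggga
Bnip3: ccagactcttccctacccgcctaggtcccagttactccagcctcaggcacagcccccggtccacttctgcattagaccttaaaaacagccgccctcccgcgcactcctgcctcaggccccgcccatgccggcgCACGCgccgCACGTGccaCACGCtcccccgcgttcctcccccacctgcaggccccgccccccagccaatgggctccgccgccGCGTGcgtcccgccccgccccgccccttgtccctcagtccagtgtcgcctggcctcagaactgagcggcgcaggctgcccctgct
Pgk1: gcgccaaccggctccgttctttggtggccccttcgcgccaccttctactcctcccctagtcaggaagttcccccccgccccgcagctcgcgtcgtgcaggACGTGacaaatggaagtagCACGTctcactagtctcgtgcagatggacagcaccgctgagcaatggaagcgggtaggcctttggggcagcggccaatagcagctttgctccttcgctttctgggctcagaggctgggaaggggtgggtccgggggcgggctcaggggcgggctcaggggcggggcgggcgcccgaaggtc
Slc2a1: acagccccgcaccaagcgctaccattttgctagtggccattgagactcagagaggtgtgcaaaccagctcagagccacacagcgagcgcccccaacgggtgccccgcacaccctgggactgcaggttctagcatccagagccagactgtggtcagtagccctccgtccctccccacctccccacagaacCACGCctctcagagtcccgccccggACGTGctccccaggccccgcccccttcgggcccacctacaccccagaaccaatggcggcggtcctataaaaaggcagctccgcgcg
The windows hold 4, 5, 2 and 2 such matches, in that order. In Ankrd37 and in Bnip3 matches on the 2 strands overlap, as the runs CACGCGTG and CACGTG show. Such letters are common in CpG-rich promoters. At least 1 match was found in 16 of 18 HIF targets with a window (88.9%) and in 18 of 24 glycolysis genes (75%). For ribosomal protein genes it was 17 of 25 (68%). Of the genes that fell 33 of 48 had a match (68.8%) and of those that rose 31 of 60 (51.7%). The share was 58.4% of the 13337 tested genes with a window, 62.8% of those above 1 CPM and 43.8% of all 32851 windows. The windows also differed in base composition, with a median of 26 CpG dinucleotides in the HIF targets, 20 in the genes that fell and 12 in the genes that rose. The median was 18 in all genes tested and 21 in those above 1 CPM. The letters TNAAGTG, which resemble the NKX2-5 core, were found in only 3 of 48 windows of genes that fell (6.25%) and 3 of 60 of genes that rose (5%). The share was 9.01% of the tested genes and 8.36% of those above 1 CPM. A match describes the letters of a window and not a bound site.

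Ankrd37, a small ankyrin-repeat protein gene, is among the most oxygen-sensitive transcripts. Its level was 32.1, 26.9, 38.5 and 44.7 CPM in untreated libraries 1 to 4 and 9.4, 9.69, 18.8 and 16.1 CPM in treated libraries 1 to 4. All 4 treated libraries lay below all 4 untreated ones, and the log2 fold change was -1.39 ± 0.23 (SE; adjusted p = 0.0085, edgeR). Ddit4 encodes REDD1, an inhibitor of mTORC1, and was at 226, 219, 243 and 233 CPM untreated and at 115, 142, 146 and 123 CPM treated. The untreated libraries were tightly grouped (230.1 ± 10.3 CPM, SD, n = 4), the treated ones did not reach them, and the log2 fold change was -0.81 ± 0.10 (adjusted p = 0.0017).

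Bnip3, a mitophagy receptor of the outer mitochondrial membrane, was at 146, 133, 211 and 173 CPM untreated and 74.3, 104, 116 and 88.2 CPM treated (log2 fold change -0.79 ± 0.17, adjusted p = 0.025). Its homologue Bnip3l (NIX) was at 334 ± 28.2 CPM untreated and 229 ± 23.8 CPM treated and passed the adjusted p (0.0061) but not the fold threshold (log2 fold change -0.55). The library groups of both genes did not overlap. The oxidoreductase Ero1l, which forms disulfide bonds in the endoplasmic reticulum, was at 454, 427, 838 and 604 CPM untreated and at 281, 319, 317 and 294 CPM treated. The untreated libraries spread widely and the treated ones hardly at all, and the log2 fold change was -0.94 ± 0.20 (adjusted p = 0.024).

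The vasodilator peptide gene Adm (adrenomedullin) was at 150.5, 176, 193 and 179 CPM untreated and at 79, 121, 121 and 118 CPM treated (log2 fold change -0.67 ± 0.15, adjusted p = 0.025), with treated library 1 below the other treated ones. Its paralogue Adm2, also called intermedin, is not on the HIF list and fell likewise from 8.21 ± 1.46 to 4.58 ± 0.504 CPM (log2 fold change -0.84 ± 0.15, adjusted p = 0.0061). Bhlhe40, a transcriptional repressor that also belongs to the circadian system, was at 194, 186, 215 and 211 CPM untreated and 127, 126, 149.6 and 131 CPM treated, again without overlap (log2 fold change -0.60 ± 0.08, adjusted p = 0.0021). Of these 6 called list members, Ankrd37 and Ddit4 were called in 8 of the 8 fits without 1 library, Adm in 5, Ero1l and Bhlhe40 in 4 and Bnip3 in 3.

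**Figure D2:**
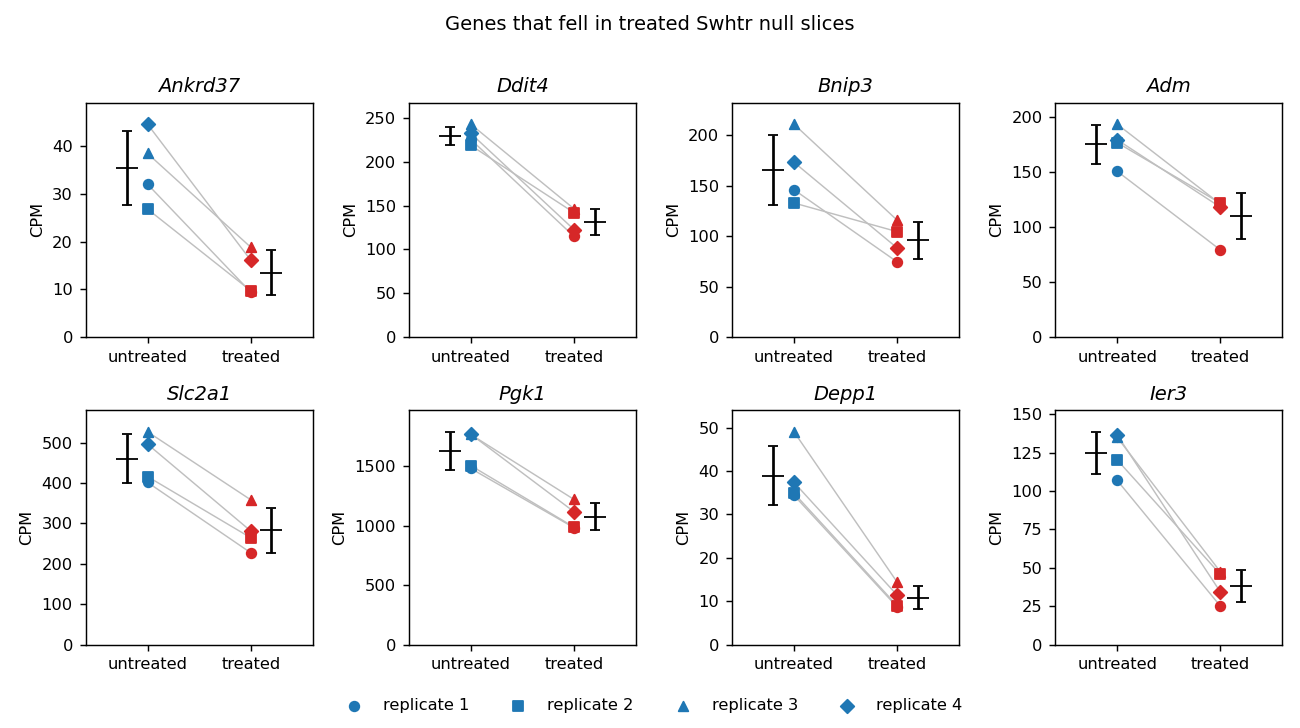
CPM of 8 genes in the 4 untreated (blue) and 4 treated (red) Swhtr null libraries, with grey lines joining libraries of the same replicate number and black bars giving the mean ± SD of each group, every axis starting at 0. In all 8 genes each treated library lies below each untreated one, and Ddit4 has the tightest untreated group (219 to 243 CPM) while Ier3 falls from 107 to 137 CPM to 24.9 to 47.3 CPM.

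Other members of the HIF list were mostly lower as well. Higd1a, a mitochondrial inner membrane protein, had an adjusted p of 0.0052 at a log2 fold change of -0.50, Egln1, the main oxygen-sensing prolyl hydroxylase, 0.03 at -0.46, Fam162a 0.013 at -0.48, the collagen crosslinking enzyme Lox 0.019 at -0.39 and the histone demethylase Kdm3a 0.038 at -0.31. The growth factor Vegfa was at 911, 839, 1182 and 967 CPM untreated and 574, 792, 810.1 and 682 CPM treated. These groups did not overlap, yet the adjusted p was 0.058 (log2 fold change -0.45). The lipid droplet gene Hilpda (log2 fold change -0.95, adjusted p = 0.085), Ndrg1 (-0.91, adjusted p = 0.062) and the prolyl hydroxylase gene Egln3 (-0.62, adjusted p = 0.12) had no overlap between the groups either, and they passed both thresholds with the replicate block (adjusted p = 0.00096, 0.015 and 0.014). Car9, Angptl4, Stc2 and Plod2, which are also HIF targets, had overlapping groups, and Plod2 was the member with a higher mean in treated slices (369 against 386 CPM, log2 fold change 0.07, adjusted p = 0.79). Outside the list, Mgarp, a mitochondrial protein gene, fell by 1.02 on the log2 scale (adjusted p = 0.0094) and Sap30, a subunit of the SIN3 histone deacetylase complex, by 0.79 (adjusted p = 0.012).

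Genes of glucose uptake and glycolysis were mostly lower too. Of 26 tested members 23 were lower in treated slices, 12 with an adjusted p under 0.05, with a median log2 fold change of -0.39. By both thresholds 4 fell (0.372% of all genes tested fell). The 4 were the glucose transporter Slc2a1 (GLUT1), the lactate exporter Slc16a3 (MCT4), phosphoglucose isomerase Gpi1 and phosphoglycerate kinase Pgk1. Slc2a1 was at 401, 416, 527 and 496 CPM untreated and at 227, 264, 358 and 281 CPM treated (log2 fold change -0.70 ± 0.16, adjusted p = 0.032). Pgk1 was at 1483, 1507, 1769 and 1772 CPM untreated and at 984, 989, 1222 and 1118 CPM treated (-0.60 ± 0.10, adjusted p = 0.0059). In both genes every treated library lay below every untreated one. Slc16a3 went from 455 ± 32.9 to 299 ± 42.2 CPM (-0.61 ± 0.11, adjusted p = 0.006) and Gpi1 from 1090 ± 182 to 726 ± 73.9 CPM (-0.59 ± 0.11, adjusted p = 0.007), also without overlap.

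The changes of Pgk1, Gpi1 and Slc16a3 lie at the fold threshold, so small shifts move them across it. With the replicate block Gpi1 was no longer called (log2 fold change -0.58, adjusted p = 1.3e-05), while Slc2a3 and Aldoc were added. The number of glycolysis genes that fell was 0 without treated library 1, untreated library 3 or untreated library 4, 1 without treated library 2 and 6 without treated library 3 or untreated library 2. The median change was steadier and lay between -0.34 and -0.44 in those 8 fits. Several genes of this list passed the adjusted p at smaller folds. Among them were Tpi1 (log2 fold change -0.47, adjusted p = 0.0052), Gapdh (-0.45, 0.0094), Ldha (-0.40, 0.0076) and the pyruvate dehydrogenase kinase gene Pdk1 (-0.38, 0.029). The muscle isoforms Slc2a4 and Pfkm and the heart lactate dehydrogenase Ldhb were the 3 members with a higher mean in treated slices, and none passed the test.

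Among the called genes outside the list were 4 that act on glycogen, gathered after their values were seen and not from a list. Gbe1, the glycogen branching enzyme, was at 65.5, 70.7, 102 and 82.3 CPM untreated and 43.3, 37.2, 47.1 and 49.4 CPM treated, which do not overlap (log2 fold change -0.86 ± 0.16, adjusted p = 0.012). Epm2a, the glycogen phosphatase laforin, fell by 0.78 (adjusted p = 0.036) and Ppp1r3b, a glycogen-targeting subunit of protein phosphatase, by 0.72 on the log2 scale (adjusted p = 0.038). Pygm, the muscle glycogen phosphorylase, rose from 2.65 to 5.07 CPM (log2 fold change 0.93 ± 0.22, adjusted p = 0.026). Of the nuclear-encoded subunits of the respiratory chain 22 of 30 were lower and 0 were called, with a median log2 fold change of -0.11. Of these, 8 had no overlap between the groups and 11 were lower at an unadjusted p under 0.05, against 940 and 1921 lower genes of the 22330 tested. Of 24 genes of fatty acid oxidation 0 were called, with a median of -0.01 and 1 lower at an unadjusted p under 0.05, and DESeq2 also called 0 of either list.

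**Figure D3:**
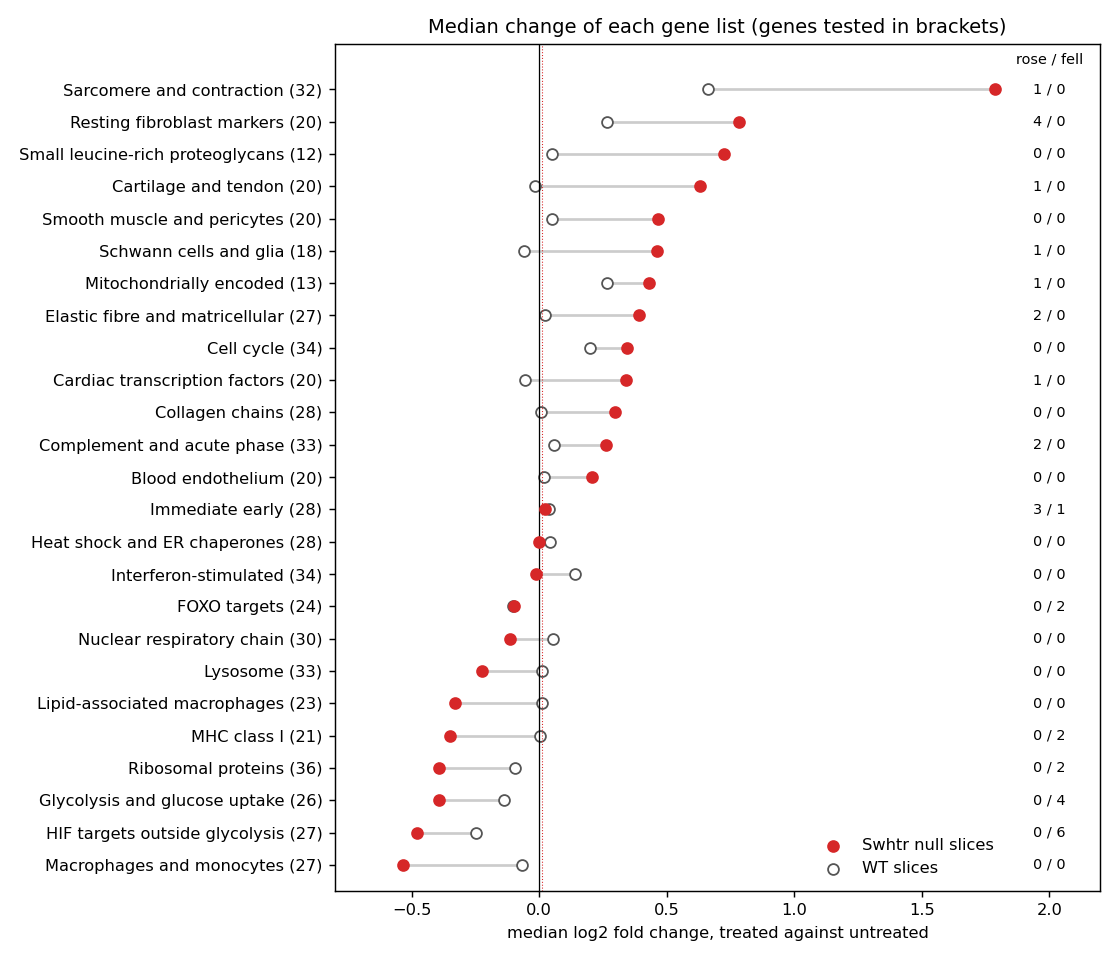
Median log2 fold change of the tested members of 25 gene lists in Swhtr null slices (red) and in WT slices (open circles), with the number of members tested in brackets and the numbers that rose and fell in Swhtr null slices at the right. HIF targets, glycolysis and ribosomal protein genes lie at -0.48, -0.39 and -0.39 in Swhtr null slices and at -0.25, -0.14 and -0.10 in WT slices, and resting fibroblast markers at 0.78 and 0.27.

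Ribosomal protein genes were lower as a block. All 36 tested members had a lower mean in treated slices, and the median log2 fold change was -0.39. Of these, 32 had an adjusted p under 0.05 and 32 had no overlap between the groups. Of all 22330 genes tested, 337 were lower at that adjusted p and 940 were lower without overlap. Of the 36 members, 2 were past the fold threshold (0.372% of all genes tested fell). In the fits without 1 library 0 to 3 were (0 without treated library 1). Rpl38, a protein of the large subunit, was at 247, 292, 287 and 286 CPM untreated and 159, 174, 202 and 191 CPM treated (log2 fold change -0.61 ± 0.10, adjusted p = 0.0053), and Rps27, of the small subunit, went from 457 ± 38.5 to 302 ± 31.8 CPM (-0.60 ± 0.11, adjusted p = 0.0089). Among the 83 genes that fell, 17 are annotated as pseudogenes, 6 of them of ribosomal proteins, such as Rpl10-ps3 (log2 fold change -0.61, adjusted p = 0.0094). These can share reads with the functional genes, and their counts are uncertain.

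Transcript length moved with the direction of change. Genes above 1 CPM were ranked by summed exon length in 5 equal bins. In the bin of the shortest genes (57 to 2192 bases) the median log2 fold change was -0.10, with 12 genes that rose and 40 that fell, and in the bin of the longest (7398 to 123179 bases) it was 0.06, with 23 that rose and 1 that fell. The same bins had medians of 0.01 and -0.02 in WT slices. The genes that rose had a median exon length of 5406 bases, those that fell 1619 bases, and all genes above 1 CPM 4251 bases. With the trend over length removed from each library, an alternative chosen after seeing the data, 116 genes were called (59 rose, 57 fell), of which 106 were among the 171. The HIF list then kept a median of -0.47 with 6 that fell and the glycolysis list -0.42 with 3 that fell, while the ribosomal protein list had a median of -0.36 and 0 called. The part of RNA quality in these trends was not tested.

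Mitochondrially encoded transcripts were higher in treated slices. All 13 had a higher mean, 7 with an adjusted p under 0.05, and the median log2 fold change was 0.43. The single member past both thresholds was mt-Nd4l, a subunit of complex I, at 119, 137, 98.3 and 87.5 CPM untreated and at 192, 157, 146 and 174 CPM treated (log2 fold change 0.60 ± 0.13, adjusted p = 0.027). The groups did not overlap, though treated library 3 at 146 CPM was close to untreated library 2. Its neighbour mt-Nd4 (log2 fold change 0.54, adjusted p = 0.011) and mt-Nd2 (0.48, adjusted p = 0.012) stayed under the fold threshold. The nuclear copies Gm28439 and Gm10222 on chromosome 1 also rose, by 0.61 and 0.60, and reads of the mitochondrial genes can fall on them. With the length trend removed 4 members rose, and 0 rose without treated library 1, 2 or 4 or untreated library 3 or 4. These transcripts had a median of 0.27 in WT slices, where 13 of 13 were higher as well.

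FOXO transcription factors raise genes of quiescence and autophagy, and 2 of 24 tested FOXO targets fell (0.372% of all genes tested fell). Depp1, an autophagy regulator under FOXO control, was at 34.4, 34.9, 49.1 and 37.4 CPM untreated and at 8.62, 8.92, 14.4 and 11.4 CPM treated. Its highest treated library was well under its lowest untreated one (log2 fold change -1.84 ± 0.34, adjusted p = 0.013). Ccng2, a cyclin induced in resting cells and another FOXO target, fell from 102 ± 11.1 to 67.2 ± 4.93 CPM (log2 fold change -0.60, adjusted p = 0.0052). The median of the 24 was -0.10, and Txnip (log2 fold change -0.44, adjusted p = 0.026) and the cell cycle inhibitor Cdkn1b (-0.49, adjusted p = 0.013) passed the adjusted p alone. In the fits without 1 library, 1 member fell without treated library 1 or untreated library 3 or 4, and 4 without treated library 3 or untreated library 2.

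Ier3, an early response gene that affects survival signalling, was at 107, 120.2, 135 and 137 CPM untreated and 24.9, 45.6, 47.3 and 34.1 CPM treated (log2 fold change -1.71 ± 0.31, adjusted p = 0.012). Smad7, the inhibitory SMAD that dampens TGF-beta signalling, had the smallest adjusted p of the genes named here. It was at 103, 99.5, 113 and 96.1 CPM untreated and at 67.7, 72.8, 68.3 and 64.4 CPM treated (log2 fold change -0.59 ± 0.06, adjusted p = 0.00027). Neither gene overlapped between the groups. The ligand Tgfb2 moved the other way, from 22.3, 25.8, 17.5 and 17 CPM to 36.9, 36.2, 26.6 and 32.4 CPM (log2 fold change 0.68 ± 0.15, adjusted p = 0.024). Smad7 and Tgfb2 were the members called among 34 tested genes of TGF-beta and BMP signalling, whose median log2 fold change was 0.13, and the block called 3 that rose and 2 that fell. Smad7 was called in 6 and Tgfb2 in 4 of the 8 fits without 1 library. The kinase gene Sik1 fell from 87.6 ± 13.2 to 53 ± 8.57 CPM (-0.72, adjusted p = 0.013).

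Immediate early genes split. Of 28 tested, 3 rose (Fosb, Egr1 and Nr4a1) and Ier3 fell, 14 were higher and 14 lower, and the median was 0.02. Fosb, an AP-1 subunit, was at 2.45, 3.04, 1.4 and 1.23 CPM untreated and at 6.74, 6.06, 5.21 and 4.81 CPM treated (log2 fold change 1.49 ± 0.33, adjusted p = 0.024), with no overlap. The zinc finger factor Egr1 was at 38.8, 70.5, 39.4 and 37.7 CPM untreated and 127, 129, 77.4 and 62.8 CPM treated (1.09 ± 0.26, adjusted p = 0.043), and the orphan nuclear receptor Nr4a1 at 6.83, 13.5, 7.69 and 6.98 CPM untreated and 31.4, 46.6, 15.7 and 13.2 CPM treated (1.62 ± 0.38, adjusted p = 0.043). In both, untreated library 2 was the high one and overlapped the lowest treated library. Without treated library 1 or 2 or untreated library 3 or 4 the number of members that rose was 0, and without untreated library 2 it was 5. Ier2 was higher (log2 fold change 0.42, adjusted p = 0.024) and Junb lower (-0.34, adjusted p = 0.034), both under the fold threshold.

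Markers of resting fibroblasts were higher throughout. All 20 tested had a higher mean in treated slices, 4 rose by both thresholds (0.394% of all genes tested rose), and the median log2 fold change was 0.78. With the block 8 rose, and in the fits without 1 library between 2 (without treated library 1 or 2 or untreated library 3 or 4) and 7 (without untreated library 2). Cd34, a surface sialomucin of fibroblast progenitors and of endothelium, was at 163, 165, 173 and 156 CPM untreated and at 234, 273, 240.2 and 272 CPM treated (log2 fold change 0.63 ± 0.08, adjusted p = 0.0017). Scara5, a ferritin receptor, was at 1.08, 0.507, 1.4 and 0.308 CPM untreated and at 3.53, 3.23, 2.17 and 2.42 CPM treated (1.76 ± 0.34, adjusted p = 0.01). In neither gene did the groups overlap.

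Dpt, the matrix protein dermatopontin, was at 173, 271, 152 and 147 CPM untreated and at 374, 479.7, 304 and 299 CPM treated, and the lowest treated value exceeded the highest untreated one (log2 fold change 0.97 ± 0.23, adjusted p = 0.039). Entpd2, an ectonucleotidase, rose from 4.55 ± 0.769 to 10.8 ± 2.99 CPM (1.24 ± 0.28, adjusted p = 0.026). Clec3b, a plasminogen-binding C-type lectin, went from 1.56 ± 0.511 to 5.86 ± 2.56 CPM without overlap, but the adjusted p was 0.063 (1.6e-05 with the block), and the actin-severing gelsolin gene Gsn went from 769.9 ± 70.8 to 1291 ± 342 CPM (log2 fold change 0.75, adjusted p = 0.059, with the block 0.00018). Of the 8 fibroblast markers used for the tissue check, Dpt was the one called. The others ranged widely, with log2 fold changes of 0.82 for Tcf21 (adjusted p = 0.16, with the block 0.018), 0.82 for Lum (0.36), 0.32 for Col3a1 (0.12), 0.21 for Pdgfra (0.36), 0.08 for Col1a2 (0.71), 0.03 for Col1a1 (0.91) and 0.03 for Dcn (0.96). Of 21 markers of activated fibroblasts 0 rose and 0 fell, with a median of 0.18 and 3 higher at an unadjusted p under 0.05 (edgeR), against 1 that rose by DESeq2 and 1 with the block. Postn, a marker of activated fibroblasts, had a log2 fold change of -0.12 (adjusted p = 0.52).

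**Figure D4:**
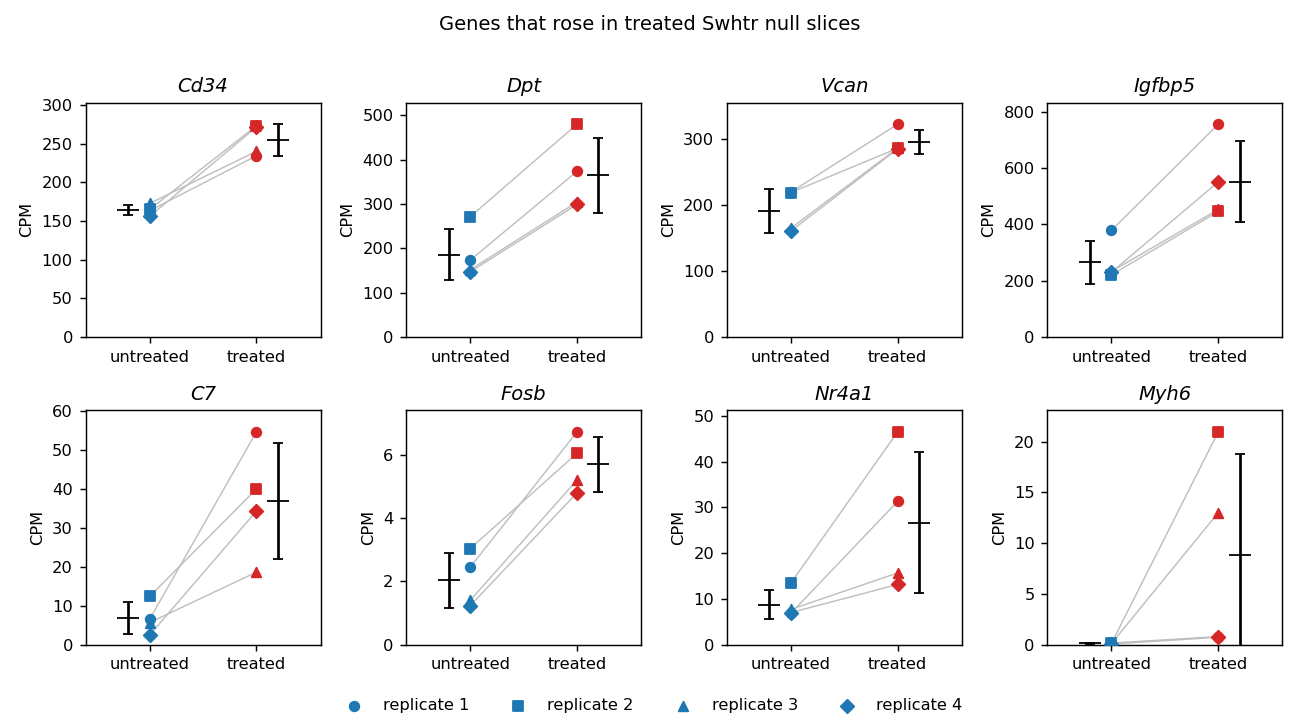
CPM of 8 genes that rose, drawn as in the panels of genes that fell, with untreated libraries in blue, treated in red, grey lines joining the same replicate number, and mean ± SD bars in black (the lower bar of Myh6 runs below 0 and is clipped). Cd34, Dpt, Vcan, Igfbp5, C7 and Fosb are separated between the groups, Nr4a1 overlaps, and Myh6 is high in treated libraries 2 and 3 (21 and 13 CPM) and below 1 CPM in the other 6 libraries.

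Extracellular matrix genes were mostly higher with few past the thresholds. Small leucine-rich proteoglycans, which space collagen fibrils, were higher in 12 of 12 with a median of 0.72 and 0 called by edgeR (6 with an unadjusted p below 0.05, and 3 by DESeq2), and the block called 4, among them Ogn and Aspn (adjusted p = 0.0031 and 2.1e-05). Of 27 elastic fibre and matricellular genes 23 were higher, with a median of 0.39, and 2 rose, Vcan and Tnxb. Vcan, the large hyaluronan-binding proteoglycan versican, was at 219.9, 219, 165 and 161 CPM untreated and at 323, 286, 287 and 285 CPM treated, without overlap (log2 fold change 0.63 ± 0.11, adjusted p = 0.0059). Tenascin-X (Tnxb) rose from 83.1 ± 20.2 to 133 ± 15.6 CPM (0.68 ± 0.14, adjusted p = 0.018), and its call was lost with the block (adjusted p = 0.063). The block called 5 of the 27, including Fbln5, which assembles elastic fibres (adjusted p = 3.7e-05 with the block and 0.19 without). Without untreated library 3 or 4, 0 of the 27 were called, and without untreated library 2, 7. The fibrillin gene Fbn1 passed the adjusted p alone (log2 fold change 0.40, adjusted p = 0.022). Of 28 collagen chains 20 were higher and 0 rose, 13 of them with an unadjusted p under 0.05 and 5 with an adjusted p under 0.05, and DESeq2 and the block each called 1. The matrilin Matn2 (0.75, adjusted p = 0.024) and the protease inhibitor Serpine2 (0.60, adjusted p = 0.032) rose.

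Complement and growth factor genes were counted list by list, with few calls. The complement component C7, which forms part of the membrane attack complex, had the largest rise of the genes named here with a mean above 5 CPM in both groups. It was at 6.5, 12.3, 5.64 and 2.41 CPM untreated and at 54.6, 40, 18.6 and 34.3 CPM treated (log2 fold change 2.46 ± 0.47, adjusted p = 0.017), and the groups did not overlap. C3, the central complement component, was at 469, 671, 339 and 370.0 CPM untreated and at 1078, 995, 649.8 and 952 CPM treated (0.99 ± 0.23, adjusted p = 0.04), where treated library 3 overlapped untreated library 2. C7 and C3 were the 2 called of 33 complement and acute phase genes, whose median was 0.26, and with the block 4 rose and 4 fell. Without treated library 1 or untreated library 3 or 4, 0 were called, and without untreated library 2, 5 rose.

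Of 26 IGF and FGF genes 17 were higher, with a median of 0.16, and 2 rose, Igfbp5 and the growth factor Fgf1 (log2 fold change 0.92, adjusted p = 0.043), against 4 with the block. Of 37 chemokines and receptors 20 were higher, with a median of 0.03, 1 rose (Ackr4) and 1 fell. Of 38 cytokines and receptors 0 were called by edgeR, with a median of 0.02, and DESeq2 called 1. Of these 38, 6 were higher and 6 lower at an unadjusted p below 0.05 (edgeR), against 2084 and 1921 of the 22330 genes tested. The IGF-binding protein gene Igfbp5 was at 379, 220.3, 233 and 229.8 CPM untreated and at 756, 446, 453 and 551 CPM treated (log2 fold change 1.05 ± 0.25, adjusted p = 0.045), with library 1 the highest of its group in both conditions. Igfbp4 showed the same kind of pairing more strongly, with 309, 667, 316 and 278 CPM untreated and 627, 1085, 528 and 507 CPM treated. It was not called (log2 fold change 0.81, adjusted p = 0.2) and had an adjusted p of 8.5e-06 with the block. Angiotensinogen (Agt) rose from 1.35 ± 0.277 to 4.3 ± 1.15 CPM (1.67 ± 0.41, adjusted p = 0.041) and the vessel-stabilising ligand Angpt1 had a log2 fold change of 1.03 ± 0.26 (adjusted p = 0.047). The thromboxane receptor Tbxa2r rose from 2.7 ± 0.496 to 5.73 ± 0.747 CPM (1.09 ± 0.23, adjusted p = 0.015) and the atypical chemokine receptor Ackr4 from 0.326 ± 0.134 to 1.46 ± 0.532 CPM (2.12 ± 0.54, adjusted p = 0.042).

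Krt19 and Gipr were also among the larger falls. Krt19, a keratin of mesothelial and epicardial cells, was at 2.54, 2.98, 6.44 and 5.13 CPM untreated and at 0.825, 1.34, 0.711 and 0.675 CPM treated, without overlap (log2 fold change -2.26 ± 0.37, adjusted p = 0.0052). The other epicardial genes did not follow it, and the list of 20 had 1 that fell, 0 that rose and a median of 0.29. The median was -0.43 without treated library 1, 0.04 without untreated library 4 and 1.43 without untreated library 2, where 2 rose, and the block called 2 that rose. The 5 epicardial markers together were at 35.1 CPM in treated library 1 and at 8.33 to 11.9 CPM in the other treated libraries. The incretin receptor Gipr was at 19.1, 11.7, 45.2 and 20.3 CPM untreated and at 5.5, 5.95, 6.67 and 6.28 CPM treated, again without overlap (-1.98 ± 0.46, adjusted p = 0.04), and was called in 1 of the 8 fits without 1 library. Mir210, whose host transcript is a HIF target, was covered by 0.659, 0.0563, 0.849 and 0.872 CPM untreated and by 0, 0, 0.0677 and 0.0795 CPM treated (adjusted p = 0.015). With 53 counts in all, of long-RNA reads over the hairpin locus, this gives no level of the mature miRNA.

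Macrophage and MHC class I genes were mostly lower in treated slices, with few calls. Of 27 macrophage and monocyte genes 25 were lower, with a median of -0.53, 0 called by edgeR and 7 at an unadjusted p under 0.05, while DESeq2 called 4 and the block 10 that fell. The median was -0.27 without treated library 2, which had the lowest macrophage marker sum, and -0.75 without treated library 3, which had the highest of the treated libraries. The complement gene C1qa, made by resident macrophages, was at 497, 289, 438 and 668 CPM untreated and at 264, 99.3, 390.0 and 189.5 CPM treated, which overlap (adjusted p = 0.13, with the block 0.049). Lysozyme (Lyz2) was at 7448 ± 1103 CPM untreated and 5505 ± 1700 CPM treated (-0.44, adjusted p = 0.24, with the block 0.012). Aif1, which encodes IBA1, had a log2 fold change of -1.28 (adjusted p = 0.13, with the block 0.00027).

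Of 21 MHC class I genes 19 were lower, with a median of -0.35, and 2 fell (0.372% of all genes tested fell). H2-Q7 was at 16.4, 13.8, 33 and 27.4 CPM untreated and 6.69, 5.8, 10.1 and 6.95 CPM treated (log2 fold change -1.62 ± 0.37, adjusted p = 0.034), and H2-Q10 went from 10 ± 0.867 to 3.69 ± 1.61 CPM (-1.43 ± 0.31, adjusted p = 0.022). The groups did not overlap in either gene. Members of the H2-Q family are near-identical and can share reads, so their counts are uncertain. Without untreated library 3 or 4, 0 of the 21 were called, and without untreated library 2, 5 fell. Of 34 interferon-stimulated genes 0 were called by edgeR or DESeq2, with a median of -0.01 and an unadjusted p below 0.05 in 1 higher and 2 lower members.

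Muscle transcripts were higher but sparse. Of 32 sarcomere and contraction genes 31 had a higher mean in treated slices, with a median log2 fold change of 1.79, and 17 had an unadjusted p below 0.05. The member past both thresholds by edgeR was Myh6, the alpha myosin heavy chain of adult heart, while DESeq2 called 7 and the block 6. It was at 0.141, 0.113, 0.0998 and 0.0513 CPM untreated and at 0.779, 21, 13 and 0.715 CPM treated (log2 fold change 6.38 ± 1.53, adjusted p = 0.047). Treated libraries 2 and 3 carried nearly all of this, and without treated library 2 the median was 1.11 and without treated library 3 it was 1.49. Without either of them, or without untreated library 1, 3 or 4, 0 genes of the list were called, and without treated library 4 or untreated library 2, 2 were. Tnnt2, the cardiac troponin T gene, showed the same 2 libraries at 32.1 and 21.4 CPM against 0.821 to 5.87 CPM in the other 6 (adjusted p = 0.12). The T-box factor Tbx20, which fibroblasts of the heart also express, rose from 162 ± 34.5 to 264 ± 41.9 CPM (0.71 ± 0.17, adjusted p = 0.044).

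Of 18 cardiac and nuclear long non-coding RNAs 11 were higher, with a median of 0.11, 1 rose and 1 fell. The one that fell was Snhg12, a host gene of small nucleolar RNAs, at 17.9, 21, 28 and 22.8 CPM untreated and 17.2, 14.7, 14.3 and 13.1 CPM treated, without overlap (log2 fold change -0.60 ± 0.14, adjusted p = 0.024). Carmn, the cardiac mesoderm enhancer-associated RNA that smooth muscle also expresses, was at 3.11, 3.43, 2.9 and 2.77 CPM untreated and at 7.33, 6.82, 4.91 and 4.69 CPM treated, without overlap (log2 fold change 0.96 ± 0.16, adjusted p = 0.0059). Its neighbour Bvht (Braveheart), not on the list, was at 7.97 ± 0.516 CPM untreated and 12 ± 1.39 CPM treated (0.58 ± 0.11, adjusted p = 0.007), a call at the fold threshold that the block did not make. Smooth muscle and pericyte genes, of which 19 of 20 were higher with a median of 0.47 and 0 called (8 with an unadjusted p below 0.05, DESeq2 and the block calling 2 each), moved with them, and the 6 smooth muscle markers summed to 300 to 427 CPM untreated and 419 to 684 CPM treated. The part of those cells in the 2 RNAs was not tested. S100b, a calcium-binding protein of Schwann cells, rose from 1.32 ± 0.462 to 4.07 ± 1.82 CPM (1.62 ± 0.36, adjusted p = 0.021), and no other gene of the 18 on the glial list was called, against 2 with the block.

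Components of the dystrophin complex and clustered protocadherins were also among the genes that rose, and they were chosen for mention after their values were seen. Dystrobrevin (Dtna, log2 fold change 1.31 ± 0.31, adjusted p = 0.029), syntrophin (Sntb1, 1.05 ± 0.23, adjusted p = 0.023) and dystrophin itself (Dmd, 0.58 ± 0.14, adjusted p = 0.036) rose. Of the gamma protocadherins, cell adhesion proteins that share constant exons, Pcdhga2 rose by 1.20, Pcdhga6 by 0.92, Pcdhga7 by 0.92 and Pcdhgb4 by 0.78 on the log2 scale (adjusted p = 0.0092, 0.013, 0.041 and 0.018). Because of those exons the counts cannot be assigned to single members.

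Within same-numbered pairs the median lay below 0 in all 4 pairs in 12 of 55 lists, above 0 in 20 and changed sign in 23. Among the latter was the epicardial list (1.94, -0.85, -0.23 and 0.09 in pairs 1 to 4). The HIF list had medians of -0.56, -0.32, -0.52 and -0.63 in pairs 1 to 4 and glycolysis of -0.42, -0.40, -0.42 and -0.41, so glycolysis differed little from pair to pair. Resting fibroblast markers had medians of 1.06, 0.41, 0.57 and 0.84. Macrophage genes had medians of -0.56, -1.02, -0.16 and -0.62, which makes pair 2 the lowest and pair 3 the nearest to 0.

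**Figure D5:**
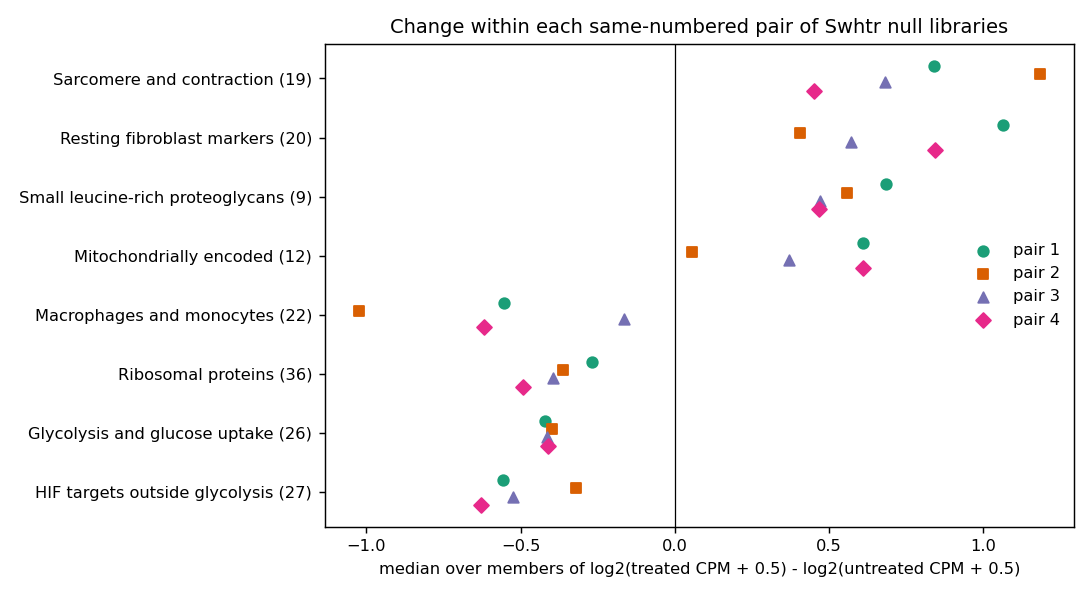
Median over the members of 8 lists (members above 1 CPM, number in brackets) of the difference in log2(CPM + 0.5) between the treated and the untreated library of the same replicate number, 1 symbol per pair. Each of these 8 lists lies on 1 side of 0 in all 4 pairs, whereas 23 of all 55 lists do not. Glycolysis medians are nearly identical (-0.42 to -0.40), and the widest spreads are those of macrophage and sarcomere genes.

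No gene's response differed between Swhtr null and WT slices by the thresholds. In the test of the difference 0 of 22330 genes (0%) were called by edgeR, the smallest adjusted p was 0.712, and 1538 genes had an unadjusted p under 0.05. DESeq2 also called 0. A fit with the replicate block in both genotypes called 28, although the numbers were not found to pair the WT libraries. Of the 171 called genes 158 changed in the same direction in WT slices. Smad7 was lower in both (-0.59 and -0.48, the latter with an adjusted p of 0.0071). The direction was also shared by Ddit4 (-0.81 and -0.64), Depp1 (-1.84 and -1.50), Ier3 (-1.71 and -1.32) and Fosb (1.49 and 1.83). In WT slices the adjusted p of these genes was 0.062, 0.92, 0.92 and 0.18 in that order (edgeR), so none of them passed there. Values were further apart for C7 (2.46 and 0.39), Dtna (1.31 and -0.37), Pcdhga2 (1.20 and -0.21) and Sap30 (-0.79 and -0.10). The differences of 2.07, 1.68, 1.40 and -0.69 did not pass the adjustment over all genes (edgeR). For the HIF list the median was -0.48 in Swhtr null and -0.25 in WT slices, where 27 of 27 members were lower, and for glycolysis -0.39 and -0.14.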

How the data were processed

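RNA from cultured mouse heart slices was sequenced in 150 bp paired-end reads, in 16 libraries of 2 genotypes and 2 oxygen regimes. Per the labels and the study's methods, the authors used STAR for alignment to the mouse build mm10 (GRCm38) and GenomicAlignments for counting over Ensembl genes, and deposited raw counts for 55487 genes. The labels and the methods name different library kits, and whether counting used strand is not given in the sources used here, so overlapping and antisense genes cannot be told apart.

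Groups and replicate numbers came from the sample titles. Genes whose counts summed to 10 or more across the 8 Swhtr null libraries were tested with the robust quasi-likelihood F test of edgeR 4.0.16 (R 4.3.3) on the 4 group means of all 16 libraries after TMM scaling, leaving 12 residual degrees of freedom. P-values were adjusted by Benjamini-Hochberg over all 22330 genes. Called genes had an adjusted p below 0.05 with a log2 fold change beyond 0.58 in either direction, the thresholds of the study, which used DESeq2. Levels are CPM with the SD over 4 libraries. Some libraries share a mouse, so p-values measure the spread between libraries. The 8 Swhtr null libraries held 17830351 to 29941903 counts each. Gene names, positions and exon lengths came from GENCODE M21 (GRCm38), which held 22287 of the tested identifiers. Promoter windows came from RefSeq on GRCm38.p6.

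The gene lists and named genes were chosen with earlier results of these data known. The rule named up to 16 largest rises and 16 largest falls among called genes that averaged 50 counts or more, had separated groups and were not clones, predicted genes or pseudogenes by symbol, up to 4 called members per list with the smallest p (up to 2 members where none was called), the 12 called genes with the highest level, up to 6 called non-coding genes and the defining cell type markers. Some genes that meet it are not reported. Bnip3, Bnip3l, Adm, Higd1a, Egln1, Fam162a, Lox, Kdm3a, Vegfa, Hilpda, Ndrg1, Egln3, Car9, Angptl4, Stc2, Plod2, Sap30, Slc2a3, Slc2a4, Aldoc, Pfkm, Tpi1, Gapdh, Ldha, Ldhb, Pdk1, Epm2a, Ppp1r3b, Pygm, Rpl10-ps3, mt-Nd4, mt-Nd2, Gm10222, Txnip, Cdkn1b, Sik1, Ier2, Junb, Clec3b, Gsn, Postn, Fbln5, Fbn1, Igfbp4, Angpt1, Nkx2-5, Dmd, Pcdhga6, Pcdhga7, Pcdhgb4, Matn4 and Cck fall outside it and were chosen after their values were seen.

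All pairs of Swhtr null libraries differed by more than sampling noise (chi-square per degree of freedom of 8.17 or more), so none was counted as a duplicate. Same-numbered treated and untreated Swhtr null libraries deviated together, with correlations over genes above 1 CPM of 0.148, 0.591, 0.259 and 0.399 for numbers 1 to 4, each over 0.1, so the numbers were taken to pair them. Untreated library 1 correlated more with treated library 4 (0.203). Treated library 3 correlated more with untreated library 4 (0.334) than with untreated library 3 (0.259), so the pairing is not certain. In WT the values were -0.088, -0.0689, 0.154 and 0.316, and the numbers were not taken as pairs. Alternatives were DESeq2 1.42.0, its size factors, the 8 libraries alone, no filter or the filterByExpr filter on low counts, the replicate block and leaving out each library. Some called genes are left out of the text.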

Additional observations from a re-analysis of the deposited data

Results flagged for a closer look

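Among 242 groups of 4 libraries examined for the values named in the text, 19 held 1 library whose gap to the nearest other, divided by the range of the group, exceeded Dixon's critical value. Chance gives about 1 in 20 such groups. No cause was tested.

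In untreated slices, library 2 was the high one for Nr4a1 (13.5 CPM, others 6.83 to 7.69), Egr1 (70.5 CPM, others 37.7 to 39.4), Igfbp4 (667 CPM, others 278 to 316), Comp (64.8 CPM, others 9.95 to 19), Lum (219 CPM, others 64.2 to 83.7), the summed epicardial markers (31.5 CPM, others 11.3 to 13.8) and the summed lymphatic endothelial markers (399 CPM, others 258 to 281). Untreated library 1 was low for Rpl38 (247 CPM, others 286 to 292) and high for Igfbp5 (379 CPM, others 220.3 to 233).

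In treated slices, library 1 was low for Adm (79 CPM, others 118 to 121), Sik1 (40.3 CPM, others 56.3 to 58.8) and H2-Q10 (1.28 CPM, others 4.29 to 4.61). It was high for Entpd2 (15.3 CPM, others 9.14 to 9.54), Vcan (323 CPM, others 285 to 287), Ackr4 (2.25 CPM, others 1.12 to 1.31) and the summed epicardial markers (35.1 CPM, others 8.33 to 11.9). Treated library 2 was high for Dcn (1082 CPM, others 566 to 612) and Comp (172 CPM, others 69.2 to 85.9), and treated library 3 was high for Bnip3l (264 CPM, others 215 to 218).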

How the results depend on the processing

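DESeq2 called 470 genes (250 rose, 220 fell) where edgeR called 171, and the 8 Swhtr null libraries alone called 6 (1 rose, 5 fell), with fewer residual degrees of freedom. Leaving out 1 library gave 24 to 615 called genes, 5 to 371 that rose and 19 to 244 that fell. The replicate block, which uses the uncertain pairing, called 619 (320 rose, 299 fell). Alternatives chosen after seeing the data joined the block with removal of the length trend (578 called, 303 rose, 275 fell) or left out pair 1 (427, 219, 208), pair 2 (638, 361, 277), pair 3 (672, 339, 333) or pair 4 (332, 162, 170). Counts stayed within 1.5 times with DESeq2 size factors (166), no filter (151), filterByExpr (198) and the length trend removed (116). The difference between genotypes gave 28 genes with the block, 20 with the block and length, 46 and 145 with the block without pair 2 and pair 3, and 0 in every other fit that gave this test. The cause was not tested.

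Of 110 genes named with a fold change or a test 70 were called. DESeq2 called 68 of them, its size factors and filterByExpr 70, no filter 55, the length trend removed 50, the 8 libraries alone 6 and the fits without 1 library 15 to 67. The block called 67 of them, losing only Gpi1, Bvht and Tnxb, and added 12 of the other named genes. No called gene changed direction in these fits. Uncalled genes near 0 did. Plod2 was at -0.01 without treated library 2, 0 without untreated library 4 (range -0.01 to 0.15 without 1 library) and -0.02 with the block without pair 1. Col1a1 (range -0.05 to 0.09 without 1 library) was at -0.05 without treated library 2, -0.01 without treated library 3, without untreated library 4 and with the length trend removed, -0.02 with the block and length and -0.04 with the block without pair 2. Col1a2 was at -0.02 with the length trend removed, with and without the block. Dcn (range -0.25 to 0.25 without 1 library) was at -0.25 without treated library 2, -0.12 without untreated library 3, 0 with the length trend removed, -0.01 with the block and length, and -0.02 and -0.06 with the block without pair 2 and pair 3.

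The count of called genes rests on which of 4 libraries per group enter, and calls near the fold threshold, such as Gpi1 and Bvht, were lost with the block. Low-count genes such as Mir210, Scara5 and the muscle transcripts in untreated slices are limited by depth. DESeq2 gave no adjusted p for Mir210. Slices hold mixed cells, and cell makeup was not measured.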

Other observations

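Further gene groups were described in the same way. Cell cycle genes were higher in treated slices in 32 of 34, with a median log2 fold change of 0.34 (0.20 in WT slices). None was called by edgeR, DESeq2 or the block (0 in each), and an unadjusted p below 0.05 was seen in 12 higher and 1 lower gene. Genes of cholesterol synthesis and uptake were higher in 20 of 22 with a median of 0.16, 0 called by edgeR or DESeq2 and 5 higher at an unadjusted p under 0.05. Of 35 genes of WNT signalling 29 were higher, with a median of 0.34. The block called 3 that rose and 1 that fell, and DESeq2 called 1 that rose and 1 that fell. Without untreated library 2, 5 rose and 1 fell, and without untreated library 4, 0 were called. The single member called by edgeR with all libraries and no block was lower. This was Dkk2, a secreted WNT modulator, at 6.64, 4.39, 4.59 and 8.31 CPM untreated and 2.29, 2.5, 3.01 and 2.38 CPM treated, with no overlap (log2 fold change -1.23 ± 0.25, adjusted p = 0.014).

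Cartilage and tendon genes were higher in 18 of 20 with a median of 0.63 (-0.02 in WT slices), and 1 rose by edgeR, 4 by DESeq2 and 5 with the block. The median was 0.27 without treated library 2 and 0.92 without untreated library 2. Comp, a matrix protein of cartilage and tendon, was at 19, 64.8, 16 and 9.95 CPM untreated and 85.9, 172, 77.3 and 69.2 CPM treated, which do not overlap (log2 fold change 1.89 ± 0.59, adjusted p = 0.12, with the block 0.023). The matrilin Matn4 had a log2 fold change of 2.23 ± 0.68 (adjusted p = 0.1, with the block 0.00019). The metallothionein Mt1 fell by 0.61 on the log2 scale (adjusted p = 0.022) with overlapping groups. Cck, the gene of the peptide cholecystokinin, was at 1.22, 1.91, 1.65 and 3.44 CPM untreated and 0.138, 0.58, 0.372 and 0.477 CPM treated, with 202 counts in all (log2 fold change -2.35 ± 0.53, adjusted p = 0.023). Its change in WT slices was -0.14, and the difference between the genotypes (-2.21) did not pass the adjustment in the edgeR test.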
